A study of Homo sapiens with 4 samples.

Results

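The chaperonin CCT, also called TRiC, is built from the products of 8 genes, and all 8 (TCP1, CCT2, CCT3, CCT4, CCT5, CCT6A, CCT7 and CCT8) were found by gene symbol among the 18917 genes of the deposited count table. Their RNA was compared between WT and THUMPD1 KO cells of the HEK-293T line, an immortalized human embryonic kidney line that the labels call HEK293, with 2 libraries per genotype. THUMPD1 is the adapter protein that NAT10 needs to acetylate tRNA, and the study asks what its loss does to translation and stress signalling. Both genotypes were grown with 10% serum and 2 mM glutamine, and the KO line was made with CRISPR-Cas9 and sorted as single cells, so that genotype and clone cannot be told apart. Nothing in the labels says that the 2 libraries of a genotype came from separate cultures, and the p-values below measure only the spread between these libraries.

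CCT is a cytosolic chaperone made of a pair of stacked rings, each with 1 copy of every subunit, that closes over unfolded proteins and releases them in an ATP-driven cycle. Its best known clients are actin, tubulin and proteins built of WD repeats, and it receives part of them from prefoldin, a smaller chaperone that binds chains leaving the ribosome. Because the subunits are used in equal numbers, both the level of each gene and its ratio to the mean of the complex were examined.

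The libraries held between 7875722 and 11362363 counts. For THUMPD1, the targeted gene, 356 and 468 reads were counted in WT against 71 and 58 in KO libraries, as the labels have it. Of the 8 genes fixed as markers of this line all were detected, with VIM between 309 and 354 CPM and PAX2 between 6.46 and 7.95 CPM (library-scaled counts, with edgeR's TMM factors). LHX1 rose (log2 fold change 2.12) and NEFM and KRT18 fell (-2.87 and -0.345) in KO cells, and whether this has a part in the results on CCT was not tested. LHX1 had 6 and 6 reads in the WT libraries and 37 and 27 in the KO libraries. It was not called with DESeq2 (adjusted p = 0.0555), and with a library left out it was called only without WT replicate 1. KRT18 was called in 6 of 8 alternative settings and with 2 of 4 libraries left out. None of 10 markers of leukocytes, endothelium, liver, fibroblasts, mature nephron or erythroid cells passed the filter on low counts; the highest value was 1.31 CPM (VWF), and UMOD and HBB were at 0 counts in every library.

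All 8 subunits passed the filter of at least 1 CPM in at least 2 libraries and lay high among the 13128 genes tested. By mean CPM, which is not corrected for length, CCT3 ranked at position 195 and CCT8 at position 1507. CCT RNA summed to 2227 and 2212 CPM in the WT libraries and to 2469.7 and 2397 CPM in the KO libraries, or between 0.221% and 0.247% of the scaled library. Both KO sums lay above both WT sums, and their means stood at a ratio of 1.10.

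To compare subunits with each other, CPM were divided by the length of the transcript with the longest coding sequence in GENCODE 44. Over the mean of the 4 libraries CCT7 was highest, with 243 ± 13.6 CPM per kb in WT and 279 ± 2.56 in KO cells (SD, n = 2 per genotype). CCT3 followed with 245 ± 1.66 and 271 ± 5.52 CPM per kb, and TCP1 with 134 ± 10.6 and 159 ± 5.69 CPM per kb. CCT7 and CCT3 overlapped over the 4 libraries, whereas TCP1 lay below CCT3 and above CCT2 in every library. CCT2, CCT5, CCT4, CCT6A and CCT8 formed a lower range, between 62.3 and 95.3 CPM per kb in any library. Within that range CCT5 and CCT4 overlapped, as did CCT6A and CCT8. CCT8 was the lowest in both WT libraries and CCT6A the lowest in both KO libraries. The highest subunit stood between 3.61 and 4.06 times above the lowest in each library, although the complex takes up equal numbers of each. The order depends on the length used: with the coding sequence alone CCT3 ranked above CCT7 and CCT2 ranked 7, with all exons merged CCT4 ranked 3, and under both CCT8 was lowest. With the coding sequence alone CCT5 ranked 4, at 176 CPM per kb, between TCP1 at 207 and CCT4 at 122. Its place in the lower range thus depends on the length used.

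**Figure D1:**
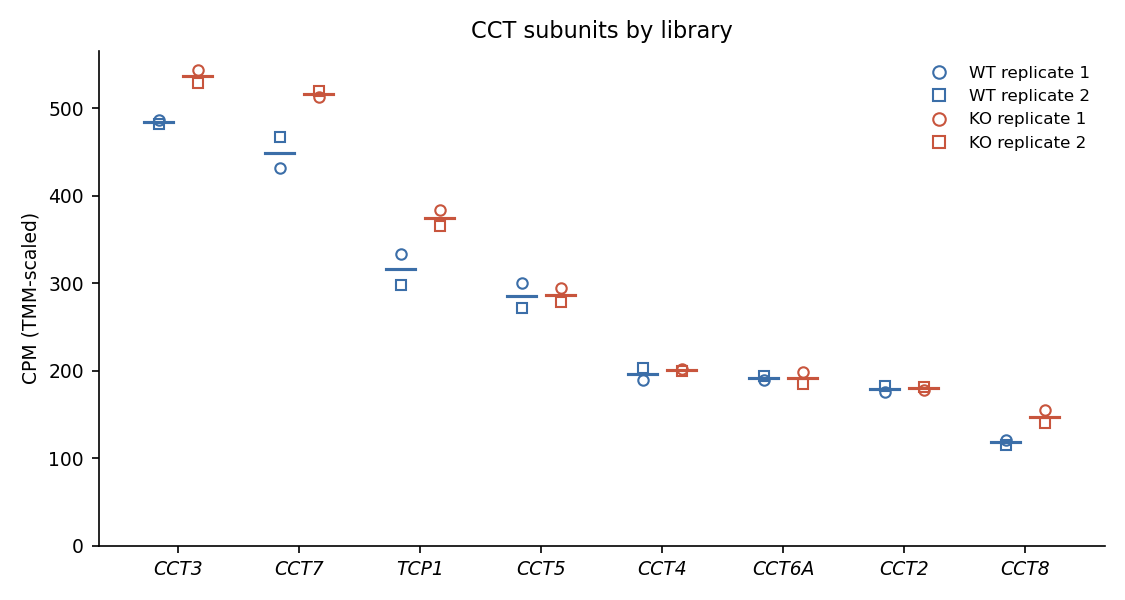
TMM-scaled CPM (vertical axis, from 0) of each CCT subunit in the 4 libraries, WT in blue and KO in red, circles for replicate 1, squares for replicate 2 and bars for the mean of 2 libraries. Both KO libraries lie above both WT libraries for CCT3, CCT7, TCP1 and CCT8, and the genotypes overlap for CCT5, CCT4, CCT6A and CCT2.

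Against WT cells, 3 of the 8 subunits were higher in THUMPD1 KO cells (CCT8, TCP1 and CCT7), 0 were lower, and 5 did not pass the threshold of an adjusted p of 0.05 in edgeR's quasi-likelihood test. The rises were small, from 1.15-fold to 1.25-fold. Among all genes tested, 20.9% were called in either direction and 8.79% higher, and among the 2230 genes whose mean reached 100 CPM, a class that holds all 8 subunits, 15.3% were called higher. With 8 genes, 3 calls rest on few values, and no test of the list was made. The median log2 fold change of the subunits was 0.09, with a median of 0.01 over all genes tested and quartiles of -0.20 and 0.21. In bulk RNA, less RNA per cell and fewer cells that hold it cannot be told apart.

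The subunits CCT3, CCT6A, CCT7 and CCT8 sit side by side in the ring, on the side known for weaker binding of ATP. CCT8, the theta subunit, had 121 and 115 CPM in the WT libraries and 155 and 140.3 CPM in the KO libraries. The means were 118 ± 4.11 CPM for WT and 147 ± 10.1 CPM for KO (SD over 2 libraries each), and the genotypes did not overlap. Its log2 fold change of 0.32 (standard error 0.07, 95% interval 0.165 to 0.47) was the highest of the complex and passed the threshold (adjusted p = 0.00302). It was still called with each of 3 libraries left out, but not without KO replicate 1, where it was 0.25 (adjusted p = 0.0665).

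CCT7, the eta subunit and the highest per kb of transcript over the mean of the 4 libraries, had 431 and 467 CPM in WT and 513 and 519 CPM in KO libraries. Both KO libraries were above both WT libraries, and the WT libraries differed more from each other than the KO libraries did. Its log2 fold change was 0.20 (standard error 0.06), with an adjusted p of 0.0192. The call was lost without WT replicate 1, at 0.14 (adjusted p = 0.174), and without KO replicate 2, at 0.19 (adjusted p = 0.0620).

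CCT3, the gamma subunit, had 486 and 482 CPM in WT and 544 and 529 CPM in KO libraries. The WT libraries agreed closely and both KO libraries were above them, but the log2 fold change of 0.15 (95% interval 0.03 to 0.27) did not pass the threshold (adjusted p = 0.0705). CCT3 was called higher with library size alone, with the upper quartile and with limma-voom, where its log2 fold change was 0.23, 0.17 and 0.21. CCT6A, the zeta subunit of most tissues, stood at 189.6 and 194 CPM in WT and at 199 and 185 CPM in KO libraries. The KO libraries lay on either side of the WT libraries, and the interval of its log2 fold change ran from -0.14 to 0.14.

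TCP1, CCT2, CCT4 and CCT5 take the side of the ring that binds ATP more tightly. TCP1, the alpha subunit and the first of the family to be described, had 333 and 298 CPM in WT and 384 and 365 CPM in KO libraries. Both KO libraries were above both WT libraries, while the WT libraries differed more than the KO libraries did. Its log2 fold change was 0.25 (standard error 0.06, adjusted p = 0.00680). It was not called without WT replicate 2, at 0.17 (adjusted p = 0.117), nor without KO replicate 1, at 0.22 (adjusted p = 0.0537).

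The other 3 genes of that side overlapped between genotypes. CCT2, which is linked to an inherited retinal disease, had 176 and 183 CPM in WT and 178 and 181 CPM in KO libraries. CCT4 had 189 and 203 CPM in WT and 202 and 199 CPM in KO libraries. CCT5, which is linked to an inherited sensory neuropathy, had 299.96 and 271 CPM in WT and 295 and 278 CPM in KO libraries. Their KO libraries lay within the range of the WT libraries, with adjusted p-values of 0.969 for CCT2, 0.783 for CCT4 and 0.956 for CCT5. The intervals of their log2 fold changes, from -0.13 to 0.14 for CCT2, -0.10 to 0.17 for CCT4 and -0.13 to 0.14 for CCT5, leave room for changes of that size in either direction. Both KO libraries were above both WT libraries for 4 of the 8 subunits, against 30.4% of all genes tested.

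**Figure D2:**
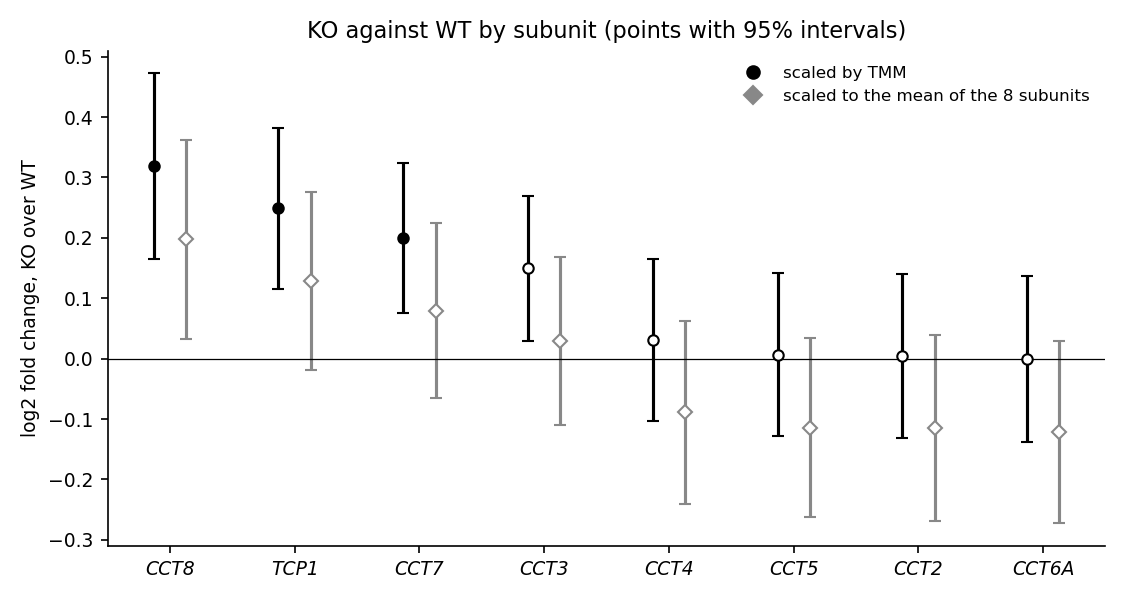
Log2 fold change of KO over WT (vertical axis) for each subunit with 95% intervals, in black with TMM scaling and in grey with the libraries scaled to the geometric mean of the 8 subunits; filled symbols passed an adjusted p of 0.05 and open symbols did not. CCT8, TCP1 and CCT7 are filled with TMM, at 0.32, 0.25 and 0.20, and no symbol is filled with the complex mean.

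The ratio of each subunit to the geometric mean of all 8, taken within a library, does not depend on how libraries are scaled to each other. The geometric mean itself was 252 and 249.6 CPM in WT and 277 and 267 CPM in KO libraries, and the KO libraries were above the WT libraries. CCT8 stood at 0.482 and 0.463 of this mean in the WT libraries and at 0.557 and 0.525 in the KO libraries, the largest shift of the 8 on the log2 scale (0.20). TCP1 went from 1.33 and 1.195 times the mean in WT to 1.39 and 1.37 times in KO libraries. Both thus lay further up in both KO libraries than in either WT library, as did CCT3, which hardly moved, from 1.93 in both WT libraries to 1.96 and 1.98.

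In the other direction, CCT5 stood at 1.19 and 1.09 times the mean in WT and at 1.06 and 1.04 times in KO libraries. CCT2 went from 0.698 and 0.731 to 0.644 and 0.678, and CCT6A from 0.754 and 0.776 to 0.717 and 0.6902. CCT4 followed with 0.752 and 0.813 in WT and 0.728 and 0.745 in KO libraries, while CCT7, at 1.72 and 1.87 against 1.85 and 1.94, was the subunit whose genotypes overlapped. The genotypes did not overlap for 7 of the 8 ratios, 3 of them higher and 4 lower in KO, and the same held for 61.2% of the ratios of all genes tested to this mean. Since the ratios are taken to their own mean, a rise of some subunits has to stand against a fall of others. With 2 libraries per genotype, the smallest two-sided p of an exact permutation test is 0.333.

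When edgeR was fitted to all genes with libraries scaled to the CCT mean, 0 of the 8 subunits passed an adjusted p of 0.05, where 25% of all genes tested did. With this scaling 497 genes were called higher and 2784 lower, since it takes the rise of the CCT mean off every gene, whereas the subunits are centred on their own mean, and the 0 of 8 cannot be read against that share. At an unadjusted threshold of 0.05 there was 1, CCT8 (adjusted p = 0.0710 in edgeR), with a log2 difference from the mean of 0.20 (95% interval 0.03 to 0.36). No other tool was run with this scaling. Taken against the mean of the other 7 subunits, CCT8 was called higher, at 0.23 (edgeR, adjusted p = 0.0349), and it was also called without KO replicate 2, at 0.24 (adjusted p = 0.0466). The remaining subunits lay between -0.12 (CCT6A) and 0.13 (TCP1). Of the 28 pairs of subunits, CCT6A and CCT8 moved most against each other, which follows from their having the lowest and highest log2 fold change. The log2 ratio of CCT6A over CCT8 was 0.64 and 0.75 in WT and 0.36 and 0.40 in KO libraries.

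**Figure D3:**
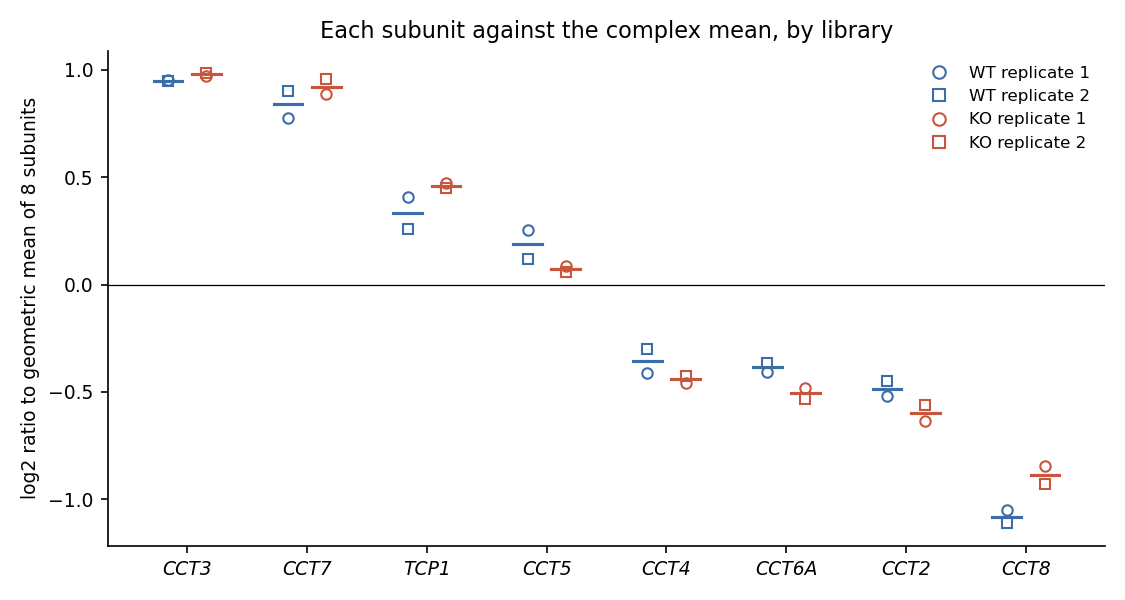
Log2 ratio of each subunit to the geometric mean of the 8 subunits in the same library (vertical axis), WT in blue and KO in red, circles for replicate 1, squares for replicate 2 and bars for means. CCT8, TCP1 and CCT3 lie higher in both KO libraries, CCT5, CCT4, CCT6A and CCT2 lower, and CCT7 overlaps.

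The promoters of CCT8 and TCP1, the subunits with the highest log2 fold changes, are shown as the reference sequences from 250 bases before to 50 bases after a start site (RefSeq, GRCh38.p14). Capitals mark matches to CCAAT or to GAANNTTC, the core of the heat shock element, on either strand. CCT8 lies on the minus strand of chromosome 21 (GENCODE 44, GRCh38, 29055805 to 29073797) and the window is chr21:29073599-29073898. TCP1 lies on the minus strand of chromosome 6 (159778498 to 159789703) and the window is chr6:159789553-159789852.
CCT8: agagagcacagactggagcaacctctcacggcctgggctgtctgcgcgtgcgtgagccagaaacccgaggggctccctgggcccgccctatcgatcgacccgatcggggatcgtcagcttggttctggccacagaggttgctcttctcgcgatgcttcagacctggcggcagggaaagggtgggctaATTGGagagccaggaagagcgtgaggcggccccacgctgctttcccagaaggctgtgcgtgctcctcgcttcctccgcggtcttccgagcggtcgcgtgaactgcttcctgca
TCP1: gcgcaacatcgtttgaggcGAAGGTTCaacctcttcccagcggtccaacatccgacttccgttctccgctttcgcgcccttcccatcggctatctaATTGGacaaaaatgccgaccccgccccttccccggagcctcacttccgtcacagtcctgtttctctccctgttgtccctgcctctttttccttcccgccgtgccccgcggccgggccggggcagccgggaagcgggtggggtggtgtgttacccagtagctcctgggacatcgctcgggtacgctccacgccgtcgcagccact
The table of promoters held 9 windows for 7 of the subunits. CCAAT was found in 4 of the 9 windows (CCT2, CCT3, CCT8 and TCP1) and in 34.6% of all 35116 windows. GAANNTTC was found in 2 of the 9 (CCT2 and TCP1) and in 6.77% of all windows. GGGCGG, the GC box, was found in 6 of the 9, which belong to 5 subunits, and in 45.0% of all windows. For CCT2 the matches to CCAAT and to GAANNTTC lie in different windows. Of the subunits called higher, CCT8 and TCP1 hold CCAAT and CCT7 does not. A match of letters is a description of these windows and not a binding site.

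Neighbours were sought from the outermost annotated starts, which for CCT3, CCT5 and CCT7 lie outside their RefSeq promoter windows. With other starts the pairs may differ. By the outermost starts, 5 of the 8 subunits have a protein-coding gene in the count table starting within 1000 bases on the opposite strand. These 5 may share a promoter region with that gene. TCP1 is paired in this way with MRPL18, a mitochondrial ribosomal protein, at 109 bases between the outermost annotated starts. CCT4 is paired with COMMD1 (53 bases), CCT5 with FAM173B, now named ATPSCKMT (32 bases), CCT6A with PSPH, the last enzyme of serine synthesis (81 bases), and CCT7 with PRADC1 (181 bases).
PSPH had 38.1 and 35.5 CPM in WT and 48.2 and 43.9 CPM in KO libraries. It rose by 0.33 on the log2 scale (standard error 0.12, adjusted p = 0.0424), while CCT6A beside it was at -0.0005. FAM173B had 24.1 and 24.8 CPM in WT and 29.5 and 34.6 CPM in KO libraries, and it rose by 0.39 (standard error 0.14, adjusted p = 0.0462), while CCT5 was at 0.01. Both calls lay near the threshold: PSPH was called with 2 of the 4 libraries left out in turn and FAM173B with 1 of 4, and over the other settings their adjusted p ran up to 0.189 and 0.2005.
MRPL18, with 75.8 and 64.2 CPM in WT and 75.4 and 78.4 CPM in KO libraries, overlapped between genotypes (log2 fold change 0.14, adjusted p = 0.301), while TCP1 rose. COMMD1, between 6.997 and 11.6 CPM, and PRADC1, between 7.30 and 9.20 CPM, were not called, at 0.00 and 0.12. In none of the 5 pairs were both genes called, and the difference within a pair was not tested. Of all genes tested 20.9% were called in either direction and 8.79% higher, and 5 pairs are too few to read these counts. At its 3' end TCP1 overlaps 615 bases of ACAT2, an enzyme that joins acetyl-CoA, on the opposite strand. ACAT2 had 60.5 and 51.4 CPM in WT and 68.6 and 78.3 CPM in KO libraries and rose by 0.40 (adjusted p = 0.00606), and it was not called without WT replicate 2 or without KO replicate 2. The spans of CCT3 and TSACC overlap by 9682 bases on opposite strands, and TSACC, with 26 to 44 counts, was not called (log2 fold change 0.29). Whether the counting used strand is not given in the sources used here, so that reads from these overlaps cannot be told apart.

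**Figure D4:**
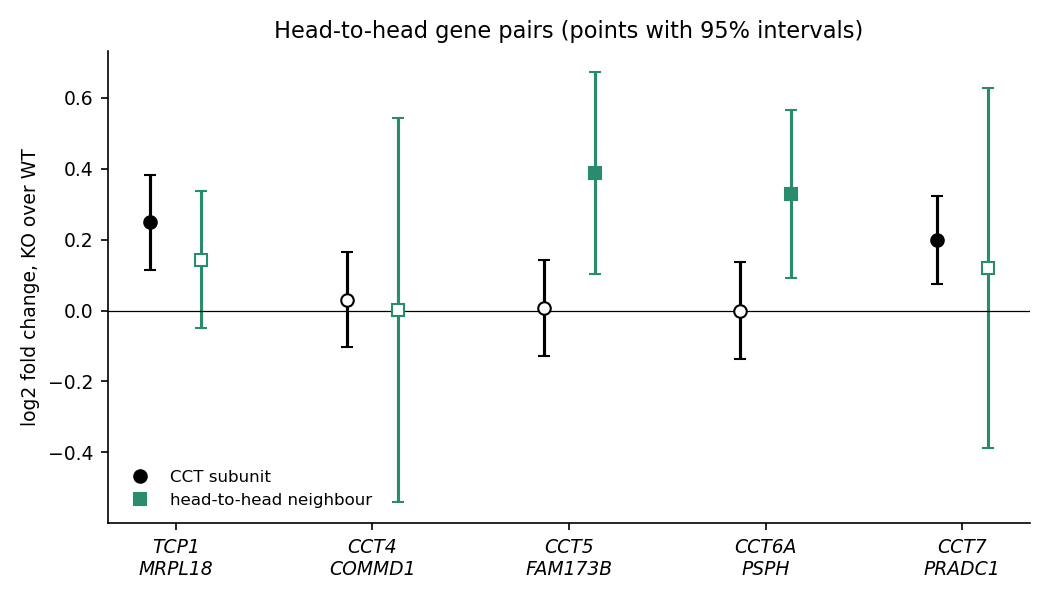
Log2 fold change of KO over WT (vertical axis) with 95% intervals for 5 CCT subunits (black circles) and the gene that starts head to head with each (green squares); filled symbols passed an adjusted p of 0.05. FAM173B, at 0.39, and PSPH, at 0.33, are filled beside open symbols of CCT5 and CCT6A, and TCP1 and CCT7 are filled beside open neighbours.

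Proteins that hand clients to CCT or act with it moved in different directions. Of the 6 subunits of prefoldin, 2 were higher in KO cells, 1 was lower and 3 did not pass the threshold, with a median of -0.004. Over all genes tested, 8.79% were called higher and 12.1% lower, and with 6 genes these counts rest on few values. PFDN4 had 29.9 and 35.2 CPM in WT and 49.6 and 45.9 CPM in KO libraries and rose by 0.545 (standard error 0.12, adjusted p = 0.00172). PFDN5 had 169.9 and 164.5 CPM in WT and 206 and 203 CPM in KO libraries and rose by 0.29 (standard error 0.07, adjusted p = 0.00217). PFDN2 went the other way, from 267 and 245 CPM in WT to 171 and 200.5 CPM in KO libraries, and fell by 0.46 (standard error 0.07, adjusted p = 5.02e-05). For these 3 subunits the genotypes did not overlap, and each was called in every alternative setting and with every library left out. Both KO libraries were above both WT libraries for 30.4% of all genes tested, and the share with both below was not counted. VBP1, PFDN1 and PFDN6 lay between -0.085 and 0.045.

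Of the phosducin-like cofactors, which bind CCT itself, PDCL, PDCL3 and TXNDC9 were tested, PDCL2 was not (0 to 7 counts), and none was called by edgeR (log2 fold changes from -0.30 to 0.06). At an unadjusted threshold of 0.05 there was 1, PDCL3 (adjusted p = 0.138), whose KO libraries were both below the WT libraries. Of the 7 members of the prefoldin-like and R2TP assemblies, URI1 rose by 0.29 (standard error 0.09, adjusted p = 0.0187), from 80.5 and 79.98 CPM in WT to 105 and 90.6 CPM in KO libraries. URI1 was not called without WT replicate 2, without KO replicate 1 or with DESeq2 (adjusted p = 0.0966). RUVBL1, RUVBL2, RPAP3, PIH1D1 and PDRG1 lay between -0.27 and -0.16 and UXT at 0.025, and none of the 6 passed the threshold. RUVBL2, PDRG1 and PIH1D1 were lower at an unadjusted threshold of 0.05 (adjusted p = 0.0579, 0.132 and 0.139 in edgeR). For each of these, as for PDCL3, both KO libraries were below the WT libraries. The shares of all genes tested that passed this unadjusted threshold, or had both KO libraries below, were not counted. Members given on such measures, here and for other lists, cannot be read as a result about their list. RUVBL2 was called lower in 2 of 8 alternative settings, and RUVBL1 without WT replicate 1. Of the 6 tubulin cofactors, which take tubulin on from CCT, TBCA rose by 0.27 (standard error 0.06, adjusted p = 0.00264). TBCB, TBCC, TBCD, TBCE and ARL2 were not called, though ARL2 was lower at an unadjusted threshold of 0.05 (adjusted p = 0.137 in edgeR). URI1 and TBCA were the only calls in their lists of 7 and 6 genes, where 8.79% of all genes tested were called higher.

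Of the CCT-like genes, 4 were tested and none was called, also not at an unadjusted threshold of 0.05 in edgeR. For CCT6B, the testis paralog of CCT6A, 8 and 13 reads were counted in WT against 21 and 19 in KO libraries, and its log2 fold change of 0.68 had a 95% interval from -0.56 to 1.92. BBS10 and BBS12, chaperonin-like proteins of the assembly of the BBSome, were at 0.31 and 0.74 and MKKS at 0.06, and BBS12 ran from 0.10 to 1.65 with a library left out, the highest value and a call coming without WT replicate 1. CCT8L2 had 0 counts in every library. HSPD1, the chaperonin of mitochondria, had 499 and 523 CPM in WT and 525 and 546 CPM in KO libraries and was not called (log2 fold change 0.07, 95% interval -0.06 to 0.19).

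Among 14 genes of actin and tubulin, the clients of CCT, 2 were higher and 4 lower in KO cells. Of all genes tested 8.79% were called higher and 12.1% lower, and of those whose mean reached 100 CPM 15.3% and 23.4%. Several of the 14 lay under 100 CPM in every library, among them TUBB4A and TUBB2B. ACTG1, cytoplasmic gamma actin, had 1350.1 and 1304 CPM in WT and 1618 and 1619 CPM in KO libraries and rose by 0.29 (standard error 0.06, adjusted p = 0.00079), while ACTB was at -0.02. TUBA1B, an alpha tubulin, had 879 and 896 CPM in WT and 1078 and 1070 CPM in KO libraries and rose by 0.275. TUBB4A fell by 0.72, TUBB2B by 0.60, TUBG1 by 0.28 and TUBB4B by 0.22, and TUBB was at -0.06. The call of TUBB4B held in 4 of 8 alternative settings and with 1 of 4 libraries left out. Actin and tubulin genes have many processed pseudogenes and close paralogs, and how reads were shared between them is not known. Of 15 WD-repeat and other clients tested, 1 was called higher and 2 lower, against 8.79% and 12.1% of all genes tested. STRAP rose by 0.31, and MLST8 and BBS2 fell by 0.73 and 0.52. VHL and GNB1, the highest of the 15 by mean CPM, were at -0.05 and 0.08. STRAP was not called without KO replicate 1, and BBS2 was not called without WT replicate 1, without KO replicate 2 or with DESeq2. MLST8 and BBS2 lie on chromosome 16, where the median log2 fold change of 573 tested genes was -0.44, and none of the 8 CCT genes lies on chromosome 16 or on chromosome 22, whose median was -0.42.

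Chaperones of the HSP70 and HSP90 systems, which cooperate with CCT, were lower where they were called. Of 11 such genes, 7 were lower and 0 higher in KO cells, with a median of -0.29, and at an unadjusted p of 0.05 in edgeR 0 were higher too. Of all genes tested 12.1% were called lower, and of those whose mean reached 100 CPM 23.4%. HSPA8, the constitutive HSP70, had 598 and 628 CPM in WT and 472 and 466 CPM in KO libraries and fell by 0.39 (standard error 0.06, adjusted p = 3.28e-05). HSPH1, a nucleotide exchange factor of HSP70, fell by 0.56, and STIP1, which links HSP70 to HSP90, by 0.37. DNAJA1, DNAJB1, HSPA4 and ST13 were the other 4 called lower, and ST13 lies on chromosome 22. DNAJB1 and HSPA4 were each called with 2 of the 4 libraries left out in turn, and DNAJA1 with 3. HSP90AB1 was at 0.01 and HSP90AA1 at -0.14, and neither was called, though HSP90AA1 was called lower in 1 of 8 alternative settings. Over the alternative settings and with a library left out, between 5 and 8 of the 11 were lower and 0 higher by edgeR, DESeq2 or limma-voom, while 1 to 4 of the CCT subunits were higher and 0 lower. The difference between the lists was not tested. HSF1, the main factor of the heat shock response, was at -0.02 (95% interval -0.19 to 0.15), HSF2 at 0.27 (adjusted p = 0.110) and HSF4, with 7 to 17 counts, at -0.75. None of the 3 was called by edgeR; 1, HSF2, passed an unadjusted threshold of 0.05 and was called in 1 of 8 alternative settings.

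**Figure D5:**
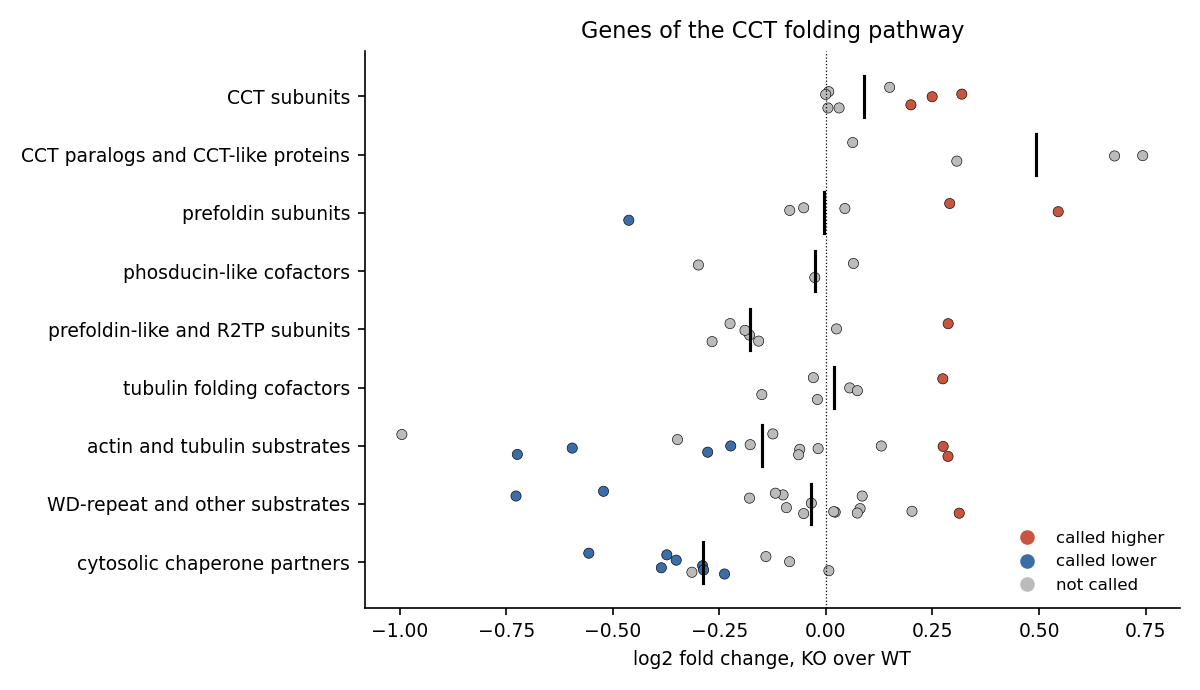
Log2 fold change of KO over WT (horizontal axis) of every tested gene in 9 lists, each point a gene (red called higher, blue called lower, grey not called) with a bar at the list's median; the vertical scatter within a list carries no value. The CCT subunits lie between -0.0005 and 0.32, and the chaperone partners, with a median of -0.29, hold 7 genes called lower and none called higher.

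Loss of THUMPD1 bears on tRNA for leucine and serine, so the codons of the subunits were counted in the longest coding sequence of each. Leucine made up between 8.44% (CCT3) and 10.9% (CCT6A) of codons, with a median of 9.74% over 12956 tested genes that had a coding model. The codons UUA, UUG, CUU and CUA made up 73.2% of the leucine codons of CCT2, 69.6% of TCP1 and 68.0% of CCT8, but 38.3% of those of CCT7 and 43.5% of CCT3, with a median of 41.2% over the tested genes. Serine ran from 4.25% (CCT5) to 7.61% (CCT4), below the median of 7.65%. The 3 subunits called higher were spread over this range, CCT7 with the lowest share of these leucine codons and TCP1 and CCT8 with high shares. Only RNA was measured in these libraries, and translation of the subunits was not analysed here.

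Over the 4 libraries, the genes whose log2 CPM moved most like the mean of the complex were RPS10-NUDT3, PRPS2, KCTD15, PARD3 and SLIT2, out of 4762 genes whose mean reached 50 CPM. Their Euclidean distances from the complex mean, each gene centred on its own mean, ran from 0.00895 to 0.0135 log2 units, and their log2 fold changes ran from 0.11 to 0.13. CCT3 was the subunit closest to the mean, at 0.0305, and CCT8 the farthest, at 0.21. None of these 5 genes passed the threshold (adjusted p from 0.130 to 0.411), and RPS10-NUDT3 is a readthrough model that shares exons with RPS10 and NUDT3.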

How the data were processed

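RNA from 2 WT and 2 THUMPD1 KO libraries was analysed, grouped by the titles in the labels. The values deposited are counts, whole and not normalized, with 1 row for each gene symbol and 1 column for each library. The labels name a Zymo RiboFree kit, paired-end reads and the build hg19, whereas the paper's methods for RNA-seq name another kit, STAR, RSEM and GRCh38 with GENCODE 46 and 3 samples per genotype; which steps made these counts is not given in the sources used here, and no further sample was analysed here. A second deposited table holds the authors' own comparison (means, log2 fold changes, errors and p-values) and was not used. Reads of subunits may be shared with pseudogenes, of which GENCODE 44 lists between 0 (CCT2) and 5 (CCT6A) per subunit by name, and none of them is in the count table.

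The quasi-likelihood test of edgeR 4.0.16 (R 4.3.3; TMM, glmQLFit, glmQLFTest) was run on the 13128 genes that reached 1 CPM in 2 or more libraries; p-values were adjusted by Benjamini-Hochberg and called at 0.05. Standard errors were the log2 fold change over the root of F. A second fit scaled libraries to the geometric mean of the 8 subunits, whose own error it ignores. DESeq2 1.42.0 and limma 3.58.1 (voom, quantile normalization) served as alternatives, beside other scalings and filters, the replicate number as a block, and each library left out, where the lone library of a genotype is assumed to vary like the other. Library totals, the only depth known, limit precision: a count of 3 was worth between 0.259 and 0.391 CPM. Chi-square over its degrees of freedom came to 4.08 for WT and 6.90 for KO replicates, above sampling noise, so each library was kept. The scripts were tested on simulated counts in which the changed genes moved by more than the CCT subunits did here. Whether changes as small as those of the subunits are called was not tested.

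Members and lists were chosen with earlier results of these data known. The genes named are the 8 subunits, all members of lists of up to 7 genes, the 3 largest called changes and the 2 most abundant genes of longer lists, genes that overlap a subunit or start head to head with it, and the 5 nearest in pattern; further called members of the longer lists, and TUBB, were named after their values were seen. PPP2R2A and HSPE1 were not analysed here. Positions, lengths and codons came from GENCODE 44 (GRCh38), not the build of the counts, and 18518 of 18917 symbols were matched through symbols or RefSeq synonyms. Tables and plots were made with Python 3.11.15, pandas 2.3.3, NumPy 2.4.6 and matplotlib 3.10.9.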

Additional observations from a re-analysis of the deposited data

How the results depend on the processing

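The alternatives for the lists other than the subunits were chosen after seeing the data. CCT8, TCP1 and CCT7 were called higher in all 8 alternatives that keep the 4 libraries, and 4 subunits were called (CCT3 added) with library size alone, with the upper quartile, with limma-voom and with the replicate block. With a library left out between 1 and 2 subunits were called, and 1 (CCT7) without KO replicate 1. The median log2 fold change of the subunits, 0.09, was 0.17 with library size alone, 0.12 with the upper quartile and 0.15 with limma-voom, and 0.0782 to 0.114 with a library left out; library size alone moved the median of all genes from 0.01 to 0.09. The spread between the highest and lowest subunit, 0.32, ran from 0.302 to 0.392 with a library left out. CCT5, at 0.01, was at -0.0138 with TMM from genes outside chromosomes 16 and 22 and ran from -0.0661 (without WT replicate 2) to 0.0784 with a library left out, also below 0 without KO replicate 1, and CCT4, at 0.03, ran from -0.0176 (without WT replicate 1) to 0.0845. Relative to the complex mean, 1 subunit (CCT8) was called against the mean of the other 7, with the replicate block and without KO replicate 2, and between 0 and 1 with a library left out. In the order per kb, 4 subunits kept their rank with all exons merged and 2 with the coding sequence alone.

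The 2748 genes called became 1665 with DESeq2 and 1594 at an adjusted p of 0.01, and 1617 to 2599 with a library left out; the cause was not tested for DESeq2. With library size alone 2081 genes were higher and 1158 lower, against 1154 and 1594. The replicate numbers were not taken to pair the libraries. Deviations of same-numbered libraries correlated at 0.059 over genes, which with 2 libraries per genotype cannot settle whether they are paired. With the replicate block 3222 genes were called. TSACC, CCT6B, BBS12 and LHX1 had at most 61 counts in any library, which limits their precision.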
